A study of Mus musculus with 6 samples.

Results

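Paneth cells of the mouse small intestine were followed through 26 gene models with 24 names. They were all models whose name begins with Defa (19 models of alpha-defensins, 17 names) and the models named Lyz1, Lyz2, Mmp7, Itln1, Habp2, Nupr1 and Copz2, out of 23699 gene models in all. No filter on level was used to choose them, and Mptx2, a mucosal pentraxin also sought, matched no model. Defa23 and Defa-rs7 each had 2 models at different loci, which were kept apart. The samples were 6 RNA libraries of duodenum, the 2 cm measured from the stomach, from 6-week-old mice of mixed background. The 3 controls were Nkx2.2flox/+, with no Cre driver given in their genotype. Mutants 1 and 2 were Nkx2.2flox/flox; Villin-Cre/+, and mutant 3 was Nkx2.2flox/flox; Villin-Cre/+; Rosa26Tomato/+, so that it also carried a reporter allele. Every mouse thus carried at least 1 floxed Nkx2.2 allele, and Villin-Cre acts in the gut epithelium, so cells outside the epithelium keep the gene. The labels do not state that each sample is a separate animal, so p-values here speak only of the spread among these 6 libraries.

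Paneth cells sit at the base of the intestinal crypts, next to the stem cells, and release granules of antimicrobial proteins into the crypt lumen. Alpha-defensins, called cryptdins in mice, are short cationic peptides stored in those granules as propeptides, and Mmp7, a matrix metalloproteinase of the same granules, cuts them into active peptides. Lyz1 is the lysozyme of Paneth cells, and Itln1 is intelectin, a secreted lectin that binds microbial sugars. In mice the alpha-defensins form a large family of near-identical genes in 1 cluster on chromosome 8, so a read can fit several of them.

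To show how alike these genes are, the last 105 coding bases of 7 of them were read from the mm9 genome, where each stretch lies in 1 exon on the plus strand. This end of the gene holds most of the mature peptide and the stop codon. Capitals mark bases that differ from Defa24 in an alignment of the full coding sequences.
Defa24: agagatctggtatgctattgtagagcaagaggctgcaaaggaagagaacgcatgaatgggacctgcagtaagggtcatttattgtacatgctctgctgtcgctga
Defa23: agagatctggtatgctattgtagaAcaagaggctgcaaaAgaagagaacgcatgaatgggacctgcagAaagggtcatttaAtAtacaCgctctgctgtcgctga
Defa3: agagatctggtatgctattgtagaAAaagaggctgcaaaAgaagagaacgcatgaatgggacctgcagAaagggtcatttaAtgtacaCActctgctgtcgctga
Defa26: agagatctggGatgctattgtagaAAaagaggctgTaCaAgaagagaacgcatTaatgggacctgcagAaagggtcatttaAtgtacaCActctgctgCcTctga
Defa5: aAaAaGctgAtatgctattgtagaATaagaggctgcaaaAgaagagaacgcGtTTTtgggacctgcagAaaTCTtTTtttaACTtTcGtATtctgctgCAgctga
Defa20: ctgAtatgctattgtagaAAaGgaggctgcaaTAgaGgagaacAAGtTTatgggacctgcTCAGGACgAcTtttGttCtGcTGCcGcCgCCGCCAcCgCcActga
Defa22: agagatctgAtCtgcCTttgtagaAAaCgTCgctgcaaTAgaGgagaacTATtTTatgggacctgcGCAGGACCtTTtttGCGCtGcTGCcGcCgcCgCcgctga
These stretches lie at chr8:22845745-22845849 (Defa24), chr8:22195496-22195600 (Defa23), chr8:22427858-22427962 (Defa3), chr8:22729250-22729354 (Defa26), chr8:22437856-22437960 (Defa5), chr8:22620511-22620615 (Defa20) and chr8:22302730-22302834 (Defa22). Defa23 differed from Defa24 at 6 bases of the stretch, Defa3 at 7 and Defa26 at 13. Defa5 differed at 26 bases, Defa20 at 38 and Defa22 at 39. Over the full coding sequence Defa3 and Defa17 were identical, as were Defa23 and Defa-rs7, and Defa21 and Defa22 matched at 99.3% of bases. Of all 101-base stretches of a transcript, the length of the reads, 90.6% of those of Defa17 also occurred in another gene, as did 86.8% for Defa3, 89.1% for Defa23, 87.7% for Defa5 and 74.5% for Defa20. For Defa24 this share was 0%, and for Defa26 it was 0.735%. Defa6, Defa4, Defa-ps1, Defa-ps12 and Defa-ps13 had no transcript in this search, so stretches shared with them were not counted. The model of Defa6 lies inside that of Defa24, so the 0% does not mean that Defa24 shares no reads. Values of single alpha-defensin models therefore depend on how shared reads were divided. Their sum depends on this less where reads are shared among the summed models. For Defa5 and Defa20, 0% of stretches occurred in another of the models followed here. Their shared stretches lay in alpha-defensin genes under other names, such as Gm15315 for Defa5 and Gm15308 for Defa20. The sum does not remove how such reads were divided.

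The depth behind the values was 21.0 to 26.3 M fragments a library. Levels are FPKM, fragments per kilobase of transcript and per M fragments, as the authors deposited them. The transcript of Nkx2-2, the targeted gene, overlapped between the groups in its total, at 1.13, 1.32 and 0.779 FPKM in controls against 1.10, 0.736 and 0.221 in mutants. Its isoforms went different ways. The one of 2049 bases measured 0.942, 1.07 and 0.464 FPKM in controls 1 to 3, and mutants 1 to 3 measured 0.0803, 7.37e-09 and 0.130, and the one of 1354 bases had 0.184, 0.250 and 0.315 FPKM in control tissue and 1.02, 0.736 and 0.0912 in mutant tissue. Control 3 and mutant 3 stood apart from the other libraries of their groups, and their deviations from the group means correlated at 0.575 across genes. Results that rest on them are given below with and without them.

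Paneth cell transcripts were abundant in every library, and Lyz1, Mmp7 and Defa24, which define the cell type, were all present. The 19 alpha-defensin models summed to 22107, 22637 and 17221 FPKM in controls against 29038, 28371 and 21167 in mutants. Mutants 1 and 2 lay above all controls, and mutant 3 lay between control 3 and control 1. Between libraries of the same number the sum was 1.31, 1.25 and 1.23 times as high in the mutant as in the control. The means were 20655 ± 2986 FPKM in controls and 26192 ± 4365 FPKM in mutants (SD, n = 3 each), a log2 ratio of 0.34, and the groups overlapped. These 19 models made up 3.23%, 3.38% and 2.37% of all FPKM in controls and 4.17%, 4.11% and 2.94% in mutants. Alpha-defensin genes under other names, 16 models, are not counted in these values. They summed to 11329, 8501 and 7132 FPKM in controls against 9234, 8382 and 8315 in mutants, without a rise in mutants 1 and 2 over control 1. Gm7849 and Gm7861 each enter that sum with 2 models of identical values. In whole tissue, more RNA of a gene per Paneth cell and more Paneth cells cannot be told apart.

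Defa24 held the largest part of the sum of the 19 models, 36.4 ± 2.29% in controls and 36.1 ± 4.14% in mutants. Defa17 followed with 16.2% in each group and Defa3 with 15.1% in each group, and each of the Defa23 models held 8.30% in controls. The tested models ran from Defa25, at 1.90 to 6.32 FPKM, up to Defa24, at 5828 to 11862 FPKM. Defa-ps12 and Defa-ps13, annotated as pseudogenes, were at 0 in all 6 libraries and were not tested. The other 24 models passed the filter of at least 0.5 FPKM in at least 3 libraries, 17 of the 19 alpha-defensin models and all 7 of the others.

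**Figure D1:**
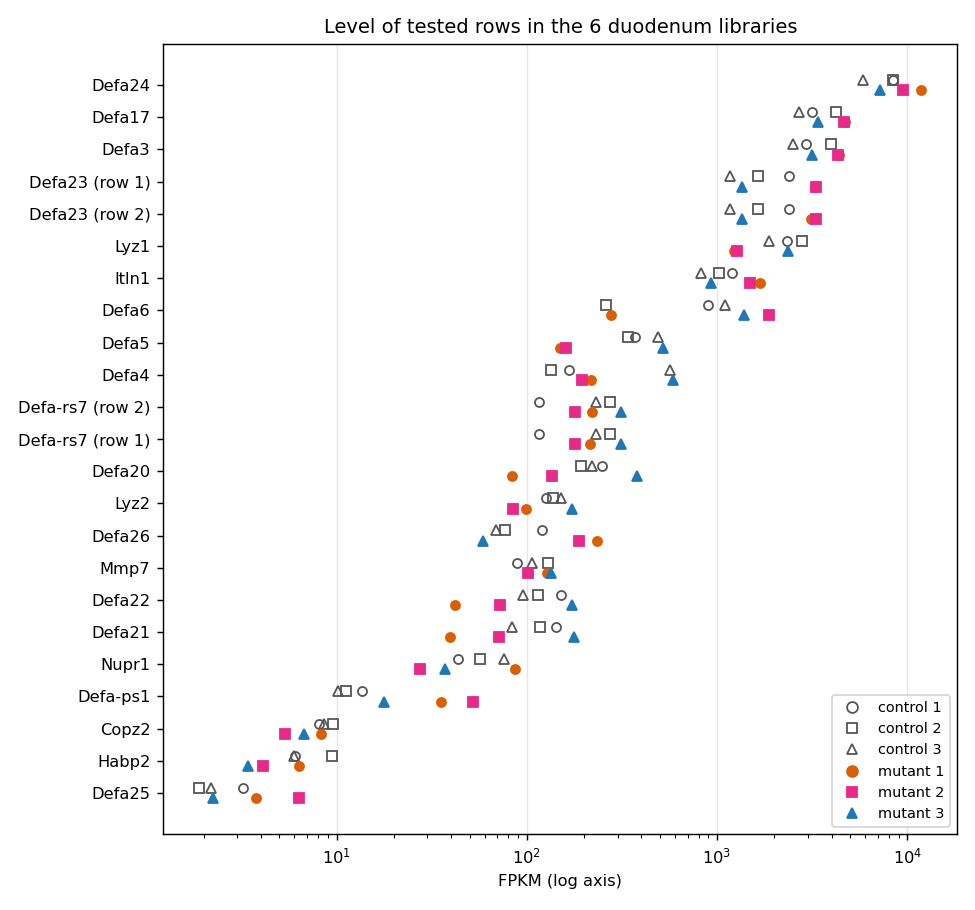
FPKM on a log axis for 23 of the 24 tested models in each of the 6 libraries, ordered by mean level; open symbols are controls, filled symbols mutants, and the shape gives the replicate number. Defa24 is highest, and in Defa20, Defa21, Defa22 and Defa5 the circles and squares of mutants 1 and 2 lie left of the controls while mutant 3 lies right of them.

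Across the genotypes no member passed the test. Limma called 0 of the 24 tested models at an adjusted p of 0.05 (adjusted p = 0.999 for each), where the background was 3 of 13596 gene models, 0.0221%. At an unadjusted p under 0.05 the count was 1 of 24, against a background of 467 models, 3.43%, and limma-voom on rebuilt fragments called 0 with 2 at that level. In 1 model, Defa-ps1, mutants and controls did not overlap, where 7.75% of all tested models did not and 4.05% had every mutant above every control. With the replicate number as a block, 22 models passed among all genes and 0 among the members. At an unadjusted p under 0.05 that fit had 8 of 24 members, 7 higher (Itln1, Defa3, Defa17, Defa4, Defa-ps1 and both Defa23 models) and 1 lower (Habp2), beside 6.76% of all tested models. Between libraries of the same number, a reading added once the data had been seen, the mutant was higher in all 3 pairs in 9 of 24 members (these 7, Defa24 and Defa25) and lower in all 3 in 0, beside 14.2% and 14.1% of all tested models. Both Defa23 models had nearly the same values, and Defa3 and Defa17 share their coding sequence and most stretches of read length. Members in these counts are thus not independent, and the background shares give no test of them. The labels do not state that libraries of the same number belong together. The log2 changes, mutant over control, were positive in 14 members and negative in 10, with a median of 0.24 beside -0.02 over all tested models.

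Members varied more between samples than most genes. Their median SD between replicates was 0.559 on the log2 scale, beside 0.182 over all tested models, and the median size of their log2 change was 0.459 beside 0.103. Mutant 1 lay above all controls in 8 of the 17 tested alpha-defensin models and below them in 5, where 19.6% and 28.7% of all tested gene models did. Mutant 2 lay above them in 9 and below in 5, beside 18.4% and 40.0% of all, and mutant 3 above in 9 and below in 1, beside 30.8% and 14.2%. The 2 sets of alpha-defensins described next were put together after their values were seen, so no test is given for the sets.

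In a first set, mutants 1 and 2 lay above every control and mutant 3 did not. Defa24, the most abundant cryptdin transcript, gave 8447, 8428 and 5828 FPKM in the control libraries against 11862, 9468 and 7204 in the mutants (log2 change 0.32 ± 0.27, SE). Defa17 measured 3139, 4223 and 2710.0 FPKM in controls 1 to 3, and mutants 1 to 3 measured 4718, 4636 and 3402 (0.35 ± 0.24). Defa3, which has the same coding sequence, had 2936, 3959 and 2519 FPKM in control tissue and 4361, 4328 and 3161 in mutant tissue (0.34 ± 0.24). In these 3 genes mutant 3 stayed inside the control range, yet above control 3, the library of its own number, by 1.24 times in Defa24, 1.26 in Defa17 and 1.25 in Defa3.

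Defa23 showed a wider gap in the same libraries. One model gave 2399, 1646 and 1165 FPKM in the control libraries against 3269.6, 3331 and 1354 in the mutants (log2 change 0.56 ± 0.42), and the model at the other locus gave nearly the same values (0.54 ± 0.41). Defa26 was low but more divided, at 119.5, 76.7 and 68.6 FPKM in controls against 235, 189 and 58.7 in mutants (0.68 ± 0.57), where mutant 3 lay below all controls, control 3 included. Defa25 was scarce, at 3.24, 1.90 and 2.19 FPKM in controls against 3.76, 6.32 and 2.24 in mutants (0.58 ± 0.34). Both Defa23 models carried the quantification status LOWDATA in all libraries, and their loci overlap those of Defa-rs7.

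In a second set the same 2 mutants lay below every control. Defa5, another cryptdin gene, measured 372, 339 and 492 FPKM in controls 1 to 3, and mutants 1 to 3 measured 149.7, 161 and 519 (log2 change -0.77 ± 0.50). Defa20 had 249, 192 and 221 FPKM in control tissue and 84.1, 135 and 380.2 in mutant tissue (-0.43 ± 0.55). Defa21 gave 143, 117 and 83.7 FPKM in the control libraries against 39.4, 71.6 and 178 in the mutants (-0.49 ± 0.57), and Defa22 stood at 151, 115 and 95.5 FPKM in controls against 41.9, 72.2 and 173 in mutants (-0.55 ± 0.53). In all 4 genes mutant 3 lay above every control, and so above control 3, from 1.05 times in Defa5 to 2.13 times in Defa21.

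Ratios within a library give the size of that division without regard to depth; they set genes of the first set over genes of the second, so they restate it. The ratio of both Defa23 models to Defa5 was 12.9, 9.71 and 4.75 in controls 1 to 3 and 42.8, 41.4 and 5.23 in mutants 1 to 3. Defa24 over Defa20 was 34.0, 43.8 and 26.3 in controls and 141, 70.03 and 18.9 in mutants. Mutant 1 and mutant 2 lay above all controls in both ratios, while mutant 3 lay within the controls in the first and below them in the second.

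**Figure D2:**
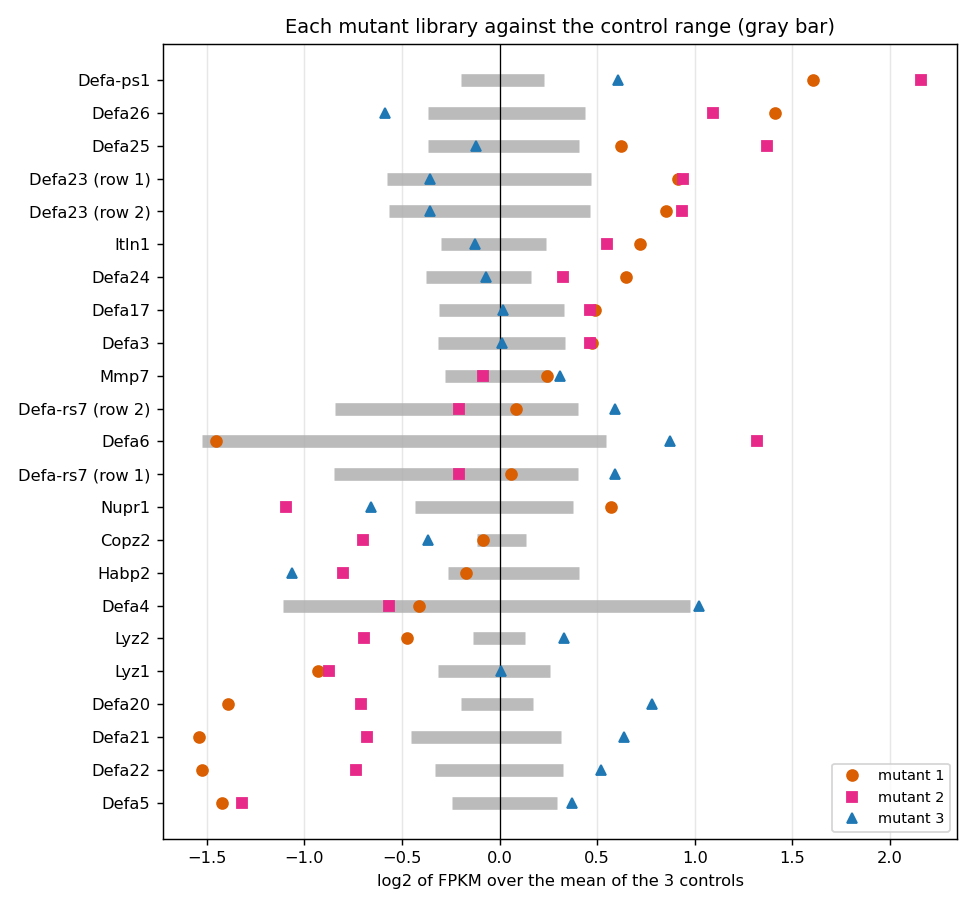
Log2 of FPKM in each mutant library over the control mean for 23 of the 24 tested models, ordered by the mean of mutants 1 and 2; the gray bar is the range of the 3 controls. Mutants 1 and 2 lie on one side of the bar and mutant 3 inside or across it in most alpha-defensins, while Defa-ps1 at the top has all 3 mutants right of the bar.

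The sets lined up with coding sequence, which had no part in choosing the genes. Among 11 alpha-defensins compared by coding sequence, Defa23, Defa-rs7, Defa17 and Defa3 matched Defa24 at 95.7% of bases, Defa25 at 91.1% and Defa26 at 89.4%. All of these but Defa-rs7 lay at 1.38 to 2.66 times the control mean in mutants 1 and 2, and Defa24 itself at 1.57 and 1.25 times. Defa5 and Defa20 matched Defa24 at 83.3%, Defa22 at 79.4% and Defa21 at 78.7%. These 4 lay at 0.344 to 0.625 of the control mean in mutants 1 and 2, and at 1.29 to 1.72 of it in mutant 3. Defa-rs7, whose coding sequence equals that of Defa23 and whose loci overlap its loci, lay at 1.05, 0.865 and 1.51 of the control mean. Many of the 11 genes share reads, and all lie in 1 cluster, so they are not independent points.

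**Figure D3:**
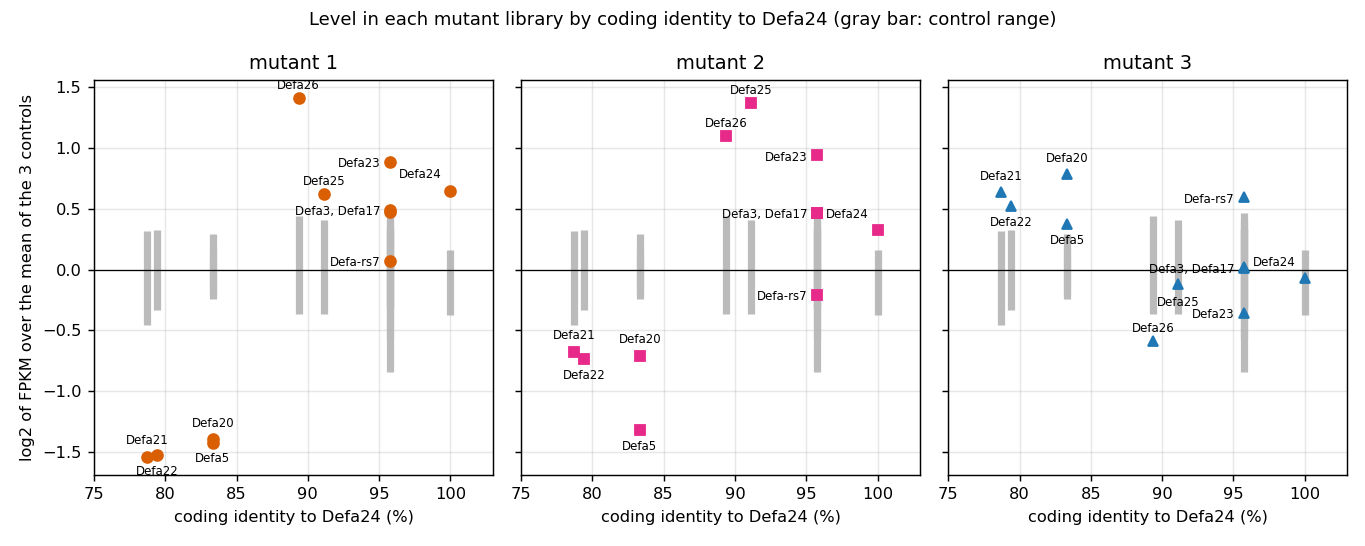
Log2 of FPKM over the control mean in mutants 1, 2 and 3 (panels) against coding identity to Defa24 in percent for 11 alpha-defensins; gray bars are control ranges, which overlie where genes share an identity. In mutants 1 and 2 the 4 genes at 83.3% or less lie below 0, and in mutant 3 they lie above 0.

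Calls among these genes appeared once mutant 3, or both libraries numbered 3, were left out. Without mutant 3, limma called Defa5 lower (log2 change -1.35, adjusted p = 0.0339) and Defa-ps1 higher (1.85, adjusted p = 0.0127), 2 of 24 members where the background was 68 models, 0.5%. Without both libraries numbered 3, an alternative added once the data had been seen, limma called Defa5 lower (-1.19, adjusted p = 0.000601), Lyz1 lower (-1.03, adjusted p = 0.00563) and Defa-ps1 higher (1.76, adjusted p = 0.0159), where the background was 200 models, 1.47%. Mutant 3 differs from mutants 1 and 2 by its reporter allele, and with 1 library of that genotype, allele and sample cannot be told apart.

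The remaining alpha-defensin models followed neither set. Defa-ps1, annotated as a pseudogene, measured 13.7, 11.2 and 10.1 FPKM in controls 1 to 3, and mutants 1 to 3 measured 35.5, 52.1 and 17.7 (log2 change 1.43 ± 0.38, limma unadjusted p = 0.00976, adjusted p = 0.999). It rested on about 28, 19 and 17 fragments in controls and 59, 97 and 29 in mutants, and all mutants lay above all controls. Defa6 had 901, 262 and 1098 FPKM in control tissue and 276, 1881 and 1379 in mutant tissue (0.49 ± 0.94), and its model lies inside that of Defa24 and had the status LOWDATA throughout. Defa4 gave 166, 134 and 569 FPKM in the control libraries against 217, 196 and 589 in the mutants (0.33 ± 0.71), with both libraries numbered 3 high. Its model is only 172 bases long, overlaps the predicted alpha-defensin gene Gm15315, and also had that status. One Defa-rs7 model measured 115, 274 and 232 FPKM in controls 1 to 3, and mutants 1 to 3 measured 216, 179 and 313 (0.24 ± 0.36), and the other nearly the same values (0.25).

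The lysozyme of Paneth cells was lower in the same 2 mutants in which Defa24 was high. Lyz1 (chromosome 10, 116724851 to 116729924, mm9) had 2343, 2801 and 1879 FPKM in control tissue and 1229, 1275 and 2355 in mutant tissue (log2 change -0.58 ± 0.29, limma unadjusted p = 0.0867, adjusted p = 0.999). Mutants 1 and 2 lay below every control, while mutant 3 lay within them and at 1.25 times control 3. Lyz2, the lysozyme of macrophages and other myeloid cells, gave 125, 137 and 151 FPKM in the control libraries against 99.1, 85.1 and 173 in the mutants (-0.27 ± 0.26). The coding sequences of both lysozymes match at 95.1% of 447 bases, yet only 1.89% of the 101-base stretches of Lyz1 occur in Lyz2, so few reads are shared whole. Markers of macrophages, where Lyz2 is known to be high, summed to 228, 236 and 244 FPKM in controls against 230, 215 and 280 in mutants over 15 models, and their part in the Lyz2 values was not tested. Lyz1 over Lyz2 was 18.7, 20.5 and 12.5 in controls and 12.4, 15.0 and 13.6 in mutants.

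Set over Defa24, Lyz1 restates both. The ratio was 0.277, 0.332 and 0.322 in controls 1 to 3, but 0.104 and 0.135 in mutants 1 and 2 and 0.327 in mutant 3. Both ratios of mutants 1 and 2 lay below the 3 controls, which were close together, and mutant 3 lay among the controls. Mmp7, the activating protease, measured 88.9, 129.5 and 106 FPKM in controls 1 to 3, and mutants 1 to 3 measured 128, 102 and 134 (log2 change 0.17 ± 0.17), so that mutants 1 and 2 were inside the control range. Itln1 had 1205, 1028 and 827 FPKM in control tissue and 1681, 1493 and 935 in mutant tissue (0.40 ± 0.26), with mutants 1 and 2 above every control as for Defa24.

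The other 3 members encode proteins of no antimicrobial role in this list. Habp2, a serine protease that binds hyaluronan, gave 6.05, 9.52 and 5.98 FPKM in the control libraries against 6.38, 4.11 and 3.44 in the mutants (log2 change -0.59 ± 0.26, limma unadjusted p = 0.0538). Copz2, a coatomer subunit of Golgi transport vesicles, measured 8.06, 9.58 and 8.56 FPKM in controls 1 to 3, and mutants 1 to 3 measured 8.24, 5.37 and 6.77 (-0.36 ± 0.16, unadjusted p = 0.062). In both genes mutants 2 and 3 lay below every control and mutant 1 among them, a different division from that of the alpha-defensins. Nupr1, a stress-induced nuclear protein, had 43.3, 56.5 and 76.1 FPKM in control tissue and 87.1, 27.5 and 37.2 in mutant tissue (-0.35 ± 0.46), and there mutant 1 alone was high.

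Promoters were compared because alpha-defensin genes are known targets of Wnt signalling through TCF factors in Paneth cells. The 250 bases before the start of the gene were searched on both strands for CTTTG followed by 2 bases that are each A or T, the core that TCF factors bind. RefSeq (GRCm38.p6) gave a promoter for 11 member names. Defa20, Defa21, Defa22 and Defa23 held 2 matches each and the other 7 held 0, where 14.8% of 32851 promoters held at least 1. Those 7 are not alpha-defensins, and no other alpha-defensin, Defa24, Defa3, Defa17 and Defa5 included, had a promoter to search. The alpha-defensins with matches are related genes of 1 cluster, so they are not independent and the 14.8% gives no test of them. Promoters of Defa23 and Defa20 are shown because these genes have the matches in common but lay on opposite sides of the controls in mutants 1 and 2, and capitals mark the matches as they read on the plus strand.
Defa23: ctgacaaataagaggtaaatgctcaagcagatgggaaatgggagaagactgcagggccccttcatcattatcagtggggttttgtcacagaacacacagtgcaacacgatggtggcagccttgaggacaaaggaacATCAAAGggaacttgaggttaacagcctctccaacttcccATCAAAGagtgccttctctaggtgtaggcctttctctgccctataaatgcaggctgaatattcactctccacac
Defa20: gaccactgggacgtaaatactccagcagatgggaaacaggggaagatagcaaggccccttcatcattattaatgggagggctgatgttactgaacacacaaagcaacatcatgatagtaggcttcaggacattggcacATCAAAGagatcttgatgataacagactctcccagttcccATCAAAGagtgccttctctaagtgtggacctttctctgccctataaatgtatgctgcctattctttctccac
They lie at chr8:21054790-21055039 and chr8:21509008-21509257 in GRCm38.p6, plus strand. A match describes these letters and is no measure of binding.

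The deposited comparison by the authors rests on a different count for most of the alpha-defensins. For Defa24 the authors' deposited table gives mean normalized counts of 29.5 in controls and 49.5 in mutants, where the fragments behind the FPKM averaged 35149 in controls, so that the table held 0.0839% of them. For Defa3 this share was 5.84%, for Defa5 12.5%, for Defa17 12.9%, for Defa20 28.4%, for Defa21 41.9% and for Defa22 43.7%. For Defa26 it was 107.4%, for Defa-ps1 167.4% and for Defa25 238.2%, more than the rebuilt fragments. Defa23, Defa-rs7, Defa4 and Defa6 are listed at 0 in the authors' deposited table, although 16168 fragments on average lay behind the FPKM of Defa23 in controls. The loci of these 4 and of Defa24 each overlap another gene model. Those of Copz2 and Habp2 do too, with shares of 102.4% and 105.3%, while Defa3, Defa5 and Defa17 have no overlapping model. The cause of the low counts was not tested. Outside the alpha-defensins the shares were 94.6% for Lyz1, 90.2% for Lyz2, 100.4% for Itln1 and 119.7% for Mmp7, and the median over 12425 genes was 100.9%.

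Directions in that table can therefore be set beside the FPKM only with these differences in count, lower for some alpha-defensins and higher for others. The authors' deposited table gives folds, mutant over control, of 0.704 for Lyz1 (p = 0.0821), 1.99 for Defa26, 1.14 for Defa3 and 1.30 for Defa17. In the second set the authors' deposited table gives 0.728 for Defa5, 0.850 for Defa22, 0.947 for Defa21 and 0.953 for Defa20. For Defa25 it gives 0.480, a log2 of -1.06, on mean counts of 9.86 and 4.74, where the FPKM had a log2 change of 0.58. The fold of that table for Defa24 is 1.68, on the few counts given above. For Defa-ps1 it gives a fold of 1.21 on mean counts of 34.0 and 41.1. On the log2 scale this is 0.27, far smaller than the log2 change of 1.43 found from FPKM. It tests 18 members and lists 0 of them with an adjusted p under 0.05, where 26 of 18605 genes of the table pass, 0.14%.

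**Figure D4:**
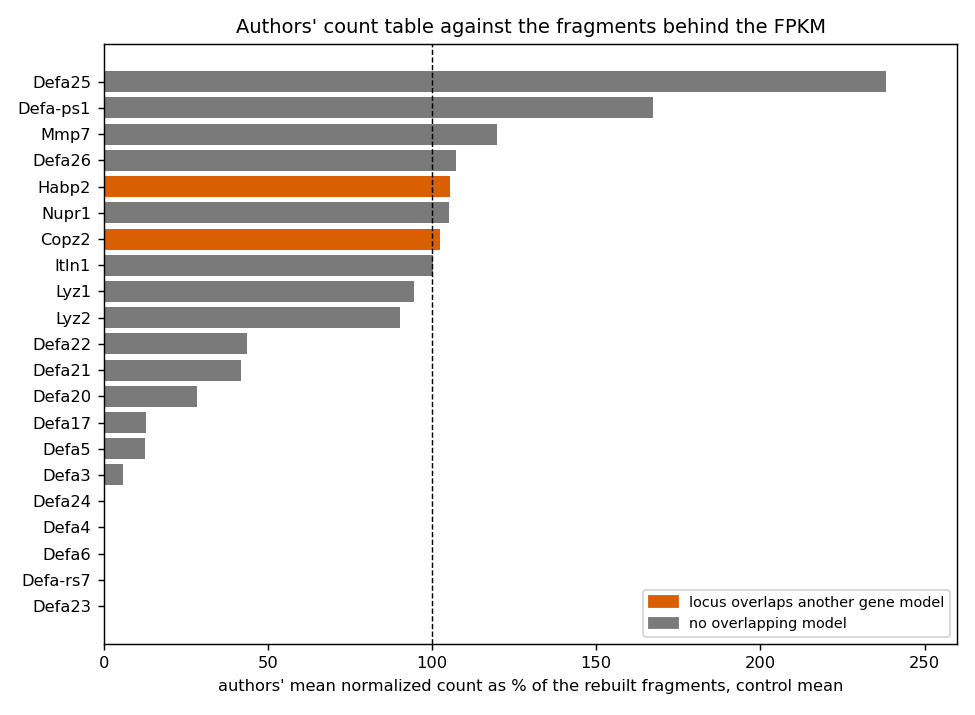
The authors' mean normalized count in controls as a percent of the fragments rebuilt from FPKM, for 21 member names with fragments; orange bars are genes whose locus overlaps another gene model, and the dashed line marks 100%. Defa24, at 0.0839%, and 4 names listed at 0 have no visible bar, while Lyz1, Itln1, Nupr1, Copz2 and Habp2 lie near the line.

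Genes around the alpha-defensins were read from 17 lists of cell types and pathways, and limma called 0 of their genes. In the list of alpha-defensin genes under other names, 12 of 14 tested models had negative changes (median log2 change -0.45). Over all tested models 7580 of 13596 were negative. Gm7849 and Gm7861 each entered the list with 2 models of identical values (-0.44 and -0.61), and their loci overlap. The models in this count are thus not independent. Gm15284, the most abundant of them, gave 4175, 3164 and 2647 FPKM in the control libraries against 5234, 4954 and 3205 in the mutants, like Defa24, while Gm14850 measured 1560.4, 1005 and 1174 FPKM in controls 1 to 3, and mutants 1 to 3 measured 924, 817 and 1269.8, below the controls in mutants 1 and 2 as Defa5 was. Of 14 tested factors of Paneth cell differentiation, 4 had positive and 10 negative changes, with a median of -0.06. Ctnnb1, the beta-catenin of Wnt signalling, had 319, 345 and 285 FPKM in control tissue and 325, 303 and 282 in mutant tissue, and Xbp1, a factor of secretory cells, stood at 151, 190.3 and 253 FPKM in controls against 171, 152 and 261 in mutants. Niche ligands of Paneth cells had a median of 0.05 (5 positive, 4 negative), and genes of zinc handling, granule release and autophagy one of 0.04 (10 positive, 7 negative). Secretory stress genes had a median of -0.15 (4 positive, 11 negative).

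Other secreted products of Paneth cells divided the libraries in another way. Of 13 tested, 4 changes were positive and 9 negative, with a median of -0.73; the list shares Clps and Rnase1, which had negative changes, with the pancreas list, and Spink4 with the goblet cell list. Reg3b, an antimicrobial lectin, gave 1467, 5823 and 42934 FPKM in the control libraries against 651, 207 and 47743 in the mutants, and Reg3g stood at 484, 1915 and 13426 FPKM in controls against 282, 96.0 and 14609 in mutants. Both libraries numbered 3 were thus high in Reg3b and Reg3g, whatever their genotype. Ang4, a microbicidal ribonuclease of Paneth cells named after its values were seen, measured 285, 199 and 233 FPKM in controls 1 to 3, and mutants 1 to 3 measured 2656, 1720 and 379 (log2 change 2.34 ± 0.74, limma adjusted p = 0.999). All mutants lay above all controls, with mutants 1 and 2 far higher, and without mutant 3 limma called it (3.17, adjusted p = 0.00423). Pla2g2a, the secretory phospholipase of Paneth granules, also named after its values were seen, had 840.3, 14.0 and 1805 FPKM in control tissue and 2647, 14.7 and 2135 in mutant tissue. Pla2g2a is known to be disrupted in some laboratory strains, C57BL/6 among them, and both libraries numbered 2 were low in it. The part of strain in the alpha-defensin values was not tested.

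Markers of other cells were summed in each library beside the alpha-defensins. Tuft cell markers, 11 models, summed to 33.6, 40.2 and 30.9 FPKM in controls against 135, 151 and 36.7 in mutants, with positive changes in 8 of 8 tested (median 1.28). Mutants 1 and 2 thus stood apart from the rest in them. In Defa24 these mutants were also highest but by less, at 9468 FPKM in mutant 2 against 8447 in control 1. In Lyz1 they lay below the rest. Retnlb, a goblet cell product named after its values were seen, gave 2.27, 1.42 and 20.9 FPKM in the control libraries against 619, 792 and 478 in the mutants (log2 change 6.99, limma adjusted p = 0.512), and limma called it without control 3 (8.06). Goblet cell markers together summed to 9934, 9329 and 9791 FPKM in controls against 8257, 9111 and 9640.4 in mutants. Transcripts of the exocrine pancreas summed to 27886, 25917 and 17088 FPKM in controls against 16930, 11154 and 3825 in mutants, with 21 of 21 changes negative (median -1.36). Those of Brunner glands and stomach summed to 3242, 9362 and 4016 FPKM in controls against 5151, 1382 and 1041 in mutants, with 9 of 9 negative (median -2.41). Over all tested models 7580 of 13596 changes were negative. Amy2a5 in the pancreas list and Tff1 in the stomach list each entered with repeated models of nearly the same or identical values. Tff1, Gkn1 and Gkn2 were high in control 2 alone, at 136, 111 and 207 FPKM. Median log2 changes were 0.14 for enterocyte, 0.14 for proximal and 0.02 for distal small intestine, -0.03 for crypt stem cell, -0.02 for macrophage, -0.20 for neutrophil, -0.08 for goblet cell and -0.14 for mesenchyme lists, and the neutrophil genes Elane and Mpo were at 0 in every library. The part of these other cells in the alpha-defensin and lysozyme values was not tested.

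**Figure D5:**
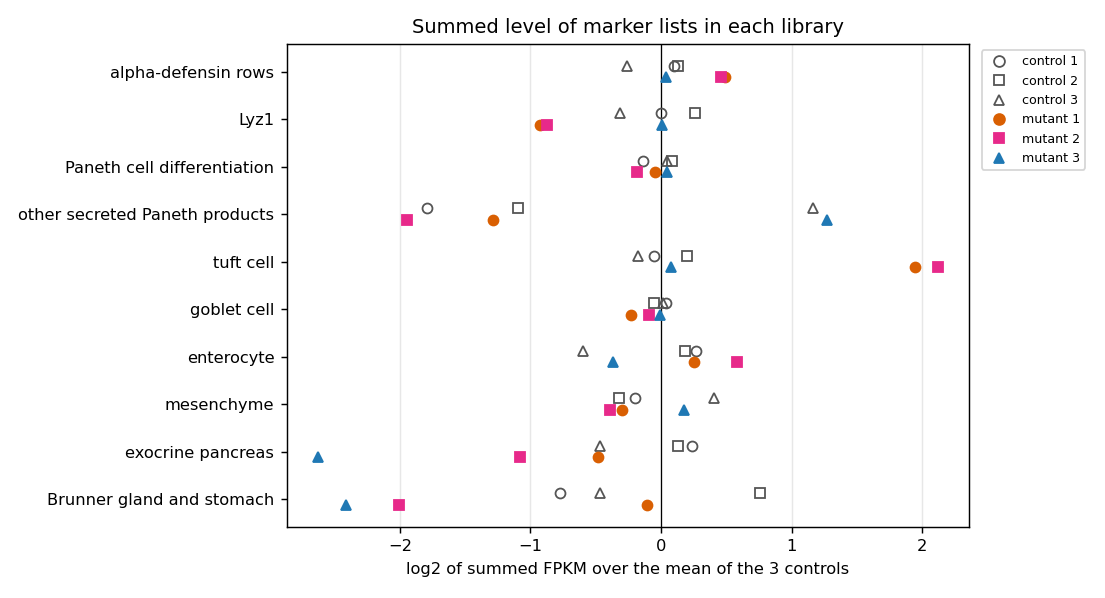
Log2 of summed FPKM over the control mean in each library for the alpha-defensin models, Lyz1 and 8 marker lists; open symbols are controls, filled symbols mutants, and the shape gives the replicate number. Mutants 1 and 2 lie together right of the controls for tuft cell markers and alpha-defensins and left of them for Lyz1, while both libraries numbered 3 are high in other secreted Paneth products.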

How the data were processed

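The authors deposited FPKM per gene and isoform, made with Cufflinks per the file headers. The authors also deposited a coverage signal per isoform and a table with mean normalized counts as a signal, their ratio, its log2 and a p-value. The submitters' processing notes name mm9 and the tools CASAVA 1.8.2, TopHat, Cufflinks and DESeq. Strand is not given in the sources used here, so antisense reads cannot be told apart.

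Members and lists were chosen with earlier results of these data known. Libraries were grouped by title. Genes of at least 0.5 FPKM in 3 libraries (13596) were compared as log2(FPKM + 0.5), which understates changes of low genes, with limma 3.58.1 (trend and robust prior) (R 4.3.3; two-sided; Benjamini-Hochberg adjusted p). In simulated data, 200 genes drawn from all tested models were changed by a log2 of 1 or 2, up or down. Of these, 57% were recovered at 1 and 90% at 2. Members had a larger median SD between replicates (0.559 beside 0.182 over all tested models), and recovery at such a spread was not measured. Fragments were rebuilt from FPKM, the Cufflinks intervals and coverage; 93.0% of 17587 values of at most 20 lay within 0.1 of a whole number. Same-numbered control and mutant libraries deviated together (correlations of 0.265, 0.25 and 0.575), although control 1 also correlated with mutant 2 (0.296). The main limma fit had no pairing. The replicate number was used only as a block in an alternative fit and in the readings between libraries of the same number. Members were named in full, except 1 that is not reported here; of other lists, the 2 genes of highest mean were named as values. Shared stretches and coding identities came from GENCODE M1 transcripts and mm9.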

Additional observations from a re-analysis of the deposited data

How the results depend on the processing

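Of the 24 tested members, 17 kept the sign of their change under all 18 other settings, and 7 (Nupr1, Defa21, Defa20, Defa4, Defa6 and both Defa-rs7 models) changed it under at least 1. The number of members called by limma was 0, with a range of 0 to 2 when each library was left out in turn and 3 without both libraries numbered 3, the setting chosen after seeing the data. Over all genes the count of 3 became 1 without the filter, 1 with upper quartile scaling, 19 with library quality weights, 22 with the replicate block, 0 with limma-voom and 200 without both libraries numbered 3, and ranged from 2 to 68 when each library was left out. Genes of the other lists called by limma went from 0 to 1 with library quality weights and 21 without both libraries numbered 3, and ranged from 0 to 8 over the libraries left out. The replicate block changed no call among members. Library quality weights moved the log2 change of Defa6 from 0.49 to -0.69, Defa20 to -1.18, Defa21 to -1.34, Defa22 to -1.35 and Nupr1 to 0.40. Among the mutants that fit gave library 1 a weight of 4.643, library 2 one of 0.92 and library 3 one of 0.357, so it leaned on mutant 1. Why the libraries differ was not tested. The log2 ratio of the summed Defa models stayed positive under every setting tried. Depth limits Defa25, Defa-ps1 and Defa4, which rested on few fragments, and the sharing of reads limits every single alpha-defensin value.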
